A study of Mus musculus with 12 samples.

Results

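The response to transforming growth factor β1 (TGF-β1) was described as the difference between mechanically injured mouse cortical neurons that received the factor and injured neurons that did not. All genes of the expression table with a mean of at least 0.5 FPKM over the 12 libraries were taken, which left 15016 of 55901 genes, and 4 libraries labelled Trauma+TGF-β1 were compared with 4 labelled Trauma. FPKM is a count of fragments scaled for gene length and for the size of the library. Every culture was prepared from the cerebral cortex of newborn C57BL/6J mice, and arabinosylcytosine, an inhibitor of DNA synthesis, was given to limit glial growth. Trauma cultures were scratched with a needle and left for 24 h. Trauma+TGF-β1 cultures were scratched, received TGF-β1 at 10 ng/mL and were also left for 24 h, and the 4 Control cultures had neither. Experiments were run between culture days 8 and 10. The cultures hold other brain cells beside neurons, and pooling of animals is not given in the sources used here. The labels call the samples separate, but do not say whether they came from separate cultures or litters, so p-values measure the spread between these libraries, which may be technical.

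TGF-β1 is a secreted protein that is held in the matrix in a latent form until integrins and other factors free it. The active ligand brings a type II and a type I serine/threonine kinase receptor together, and the type I receptor phosphorylates Smad2 and Smad3, which join Smad4 and enter the nucleus. In many cell types matrix proteins and regulators of the pathway itself, such as Smad7, Skil and Pmepa1, are then transcribed. Astrocytes, microglia and neurons carry these receptors, and the factor is known in brain for matrix production after injury and for restraint of microglia.

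The neuron label was checked against marker genes. The summed FPKM of 10 neuron markers was 1450 to 1492 with TGF-β1 and 1493 to 1603 in Trauma, so that these groups lay close but did not overlap. Tubb3 was the most abundant of these markers, at means of 739 FPKM with TGF-β1 and 842 without it. Stmn2, Map2, Syt1 and Snap25 had higher means with TGF-β1, and the remaining neuron markers had lower ones. The sums of 9 astrocyte markers (286 to 306 with TGF-β1 and 270 to 332 in Trauma) overlapped between the groups. So did those of 7 oligodendrocyte lineage markers (56.6 to 63.2 with TGF-β1 and 57.2 to 64.4 in Trauma). The 9 microglial markers summed to 25.4 to 29.4 with TGF-β1 and to 31.4 to 40.1 without it, so that the groups did not overlap. Most of that sum was C1qa, C1qb and C1qc, complement genes with means of 9.05, 8.80 and 6.09 FPKM with TGF-β1 and 11.2, 11.9 and 7.86 without it, while none of the other 6 had a group mean above 1.68 or was called, and Tmem119 had means of 0.281 and 0.0386. The 8 endothelial and fibroblast markers reached at most 4.24, and Cldn5, which marks brain endothelium, was at 0 in 6 of the 8 libraries. Of these markers the neuronal ones were the most abundant, and astrocyte, oligodendrocyte and microglial RNA was present. Tubb3, a neuronal tubulin, fell from 842 ± 28.4 to 739 ± 24.6 FPKM (SD, n = 4 each), and Map2, a dendritic microtubule protein, rose from 103 ± 2.33 to 119 ± 3.59 FPKM. Neither passed after the GC correction described below, under which the log2 difference of Tubb3 was −0.0299, and under quantile normalization the sign of Tubb3 turned. In such bulk libraries fewer cells of a type cannot be told apart from less RNA per cell.

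Many genes differed by small amounts between the Trauma+TGF-β1 and the Trauma libraries. With the moderated test of limma on log2(FPKM + 0.1), 1819 of 15016 genes (12.1%) passed an adjusted p of 0.05, of which 661 (4.40%) were higher and 1158 (7.71%) lower with TGF-β1. The median absolute log2 difference of these genes was 0.294, and 55 reached 1. The 4 Trauma+TGF-β1 libraries were all higher than the 4 Trauma libraries for 1528 genes (10.2%) and all lower for 1800 genes (12.0%). All values times gene length came out as whole reads (100% within 0.1 of a read), and 15052486 to 17381671 reads fell on genes per library. A weighted fit of those reads called 2554 genes, 1094 higher and 1460 lower. Quantile normalization turned the balance of directions, with 1125 genes higher and 927 lower, and it shifted the median of all genes only from 0.0025 to 0.019. Removal of single libraries moved the count between 651 (without Trauma+TGF-β1 library 2) and 2539 (without Control library 1), and 558 genes were called with each of the 8 compared libraries left out in turn. In simulated reads the same test recovered 32% of 200 genes changed by 0.5 log2 units and 87% of 200 changed by 1. The simulation gave all genes the same spread, added counting noise to it and held no GC or length tilt. Its shares therefore do not give the sensitivity in the real libraries, which was not measured.

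The 12 largest rises included Ccn2, Mfsd2a, Col12a1, Kdelr3 and the heat shock gene Hspb1, and they were not tested for a shared function. They and the 12 largest falls were chosen among genes whose Trauma and Trauma+TGF-β1 libraries did not overlap. Ccn2 (ENSMUSG00000019997, mm10, chr10:24595442-24598683, plus strand) encodes connective tissue growth factor, a textbook TGF-β target. It was at 3.63, 3.41, 3.54 and 3.54 FPKM in the Trauma libraries and at 10.8, 11.1, 10.8 and 10.6 with TGF-β1. The 4 Control libraries were lower still at 1.66 to 2.15. The log2 difference was 1.59 (SE 0.0712, limma adjusted p = 3.1e-07). Mfsd2a (ENSMUSG00000028655, chr4:122946850-122961188, minus strand), a transporter of lysophospholipids with docosahexaenoic acid, was at 19.2, 21.6, 20.3 and 19.9 FPKM in Trauma and at 50.4, 54.0, 52.2 and 55.5 with TGF-β1. It was the gene with the smallest adjusted p of those named here (1.9e-08), at a log2 difference of 1.39 (SE 0.0461), while Control libraries held 13.7 to 14.9. Col12a1 (ENSMUSG00000032332, chr9:79598991-79718831, minus strand), a fibril-associated collagen, went from 0.647, 0.662, 0.769 and 0.716 FPKM to 1.95, 1.99, 1.78 and 1.98, a log2 difference of 1.34 (SE 0.16, adjusted p = 0.0018). For these 3 genes the difference kept its size after correction for GC content, at 1.62, 1.49 and 1.32.

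Among weaker transcripts, Kdelr3, a receptor that returns proteins to the endoplasmic reticulum, rose from 0.580 ± 0.145 to 1.99 ± 0.417 FPKM on 10 to 18 reads per Trauma library and 32 to 52 with TGF-β1, and Tmem100, a target of BMP and TGF-β family signalling in endothelium, rose from 1.66 to 4.08 FPKM. Plod2 (1.98 to 3.73 FPKM), which hydroxylates lysines of collagen, Creb3l2 (0.83 to 1.61), a membrane-bound transcription factor that controls collagen export, Itih3 (1.22 to 2.36), a hyaluronan-binding matrix protein, and Ampd3 (1.98 to 3.84), an AMP deaminase, rose as well. All 6 were called with any of the 8 compared libraries left out. Hspb1, a small heat shock protein, passed at 1.00 to 2.67 FPKM (adjusted p = 0.037), but in none of the 8 fits with a compared library left out, and Angptl2 and Loxl1 passed in 1 of the 8 each.

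**Figure D1:**
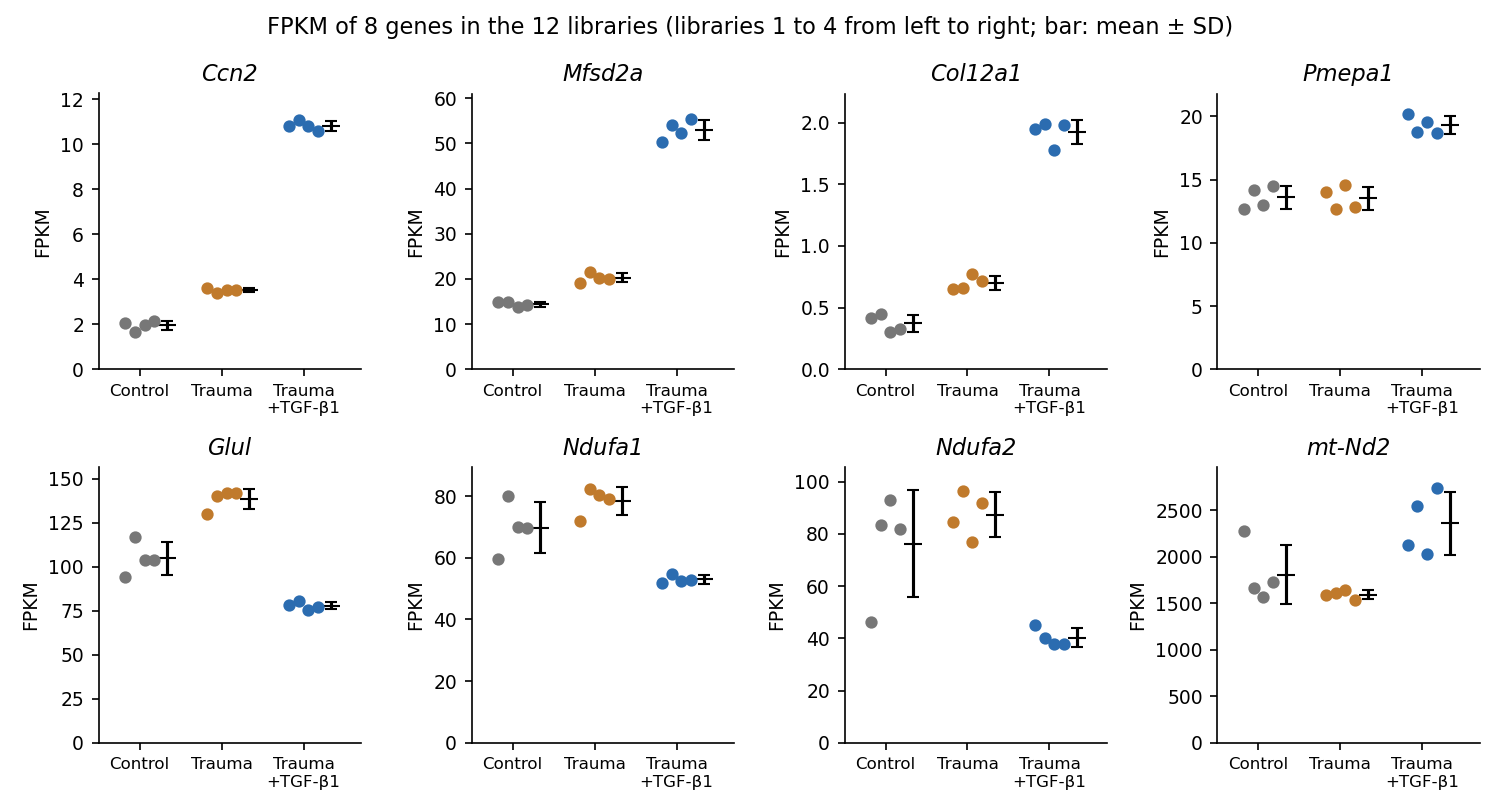
FPKM of 8 genes (y axis, from 0) in the Control, Trauma and Trauma+TGF-β1 libraries (x axis), each point 1 library and each bar the mean ± SD of 4. The 4 Trauma+TGF-β1 libraries stand above all others for Ccn2 (10.6 to 11.1 FPKM) and Mfsd2a (50.4 to 55.5) and below the Trauma libraries for Glul (75.3 to 80.3), whereas Control library 1 lies with or near the Trauma+TGF-β1 libraries for Ndufa2 (46.4) and mt-Nd2 (2273).

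The largest falls came from genes of unlike function. Mapkapk5, a kinase downstream of p38 and ERK3, was at 2.85, 2.64, 2.21 and 2.60 FPKM in Trauma and at 1.44, 0.923, 0.793 and 0.684 with TGF-β1 (log2 difference −1.38, SE 0.29, adjusted p = 0.015). Tmsb10, a thymosin that binds actin monomers, was at 259, 280, 241 and 273 FPKM in Trauma and at 175, 112, 156 and 89.5 with TGF-β1 (−1.03, SE 0.19, adjusted p = 0.0098). In both genes the groups did not overlap, as the choice of the largest falls required. The Trauma+TGF-β1 libraries differed among themselves more than for Ccn2. Pfdn6, a prefoldin subunit that hands actin and tubulin to their chaperonin, fell from 25.2 to 11.5 FPKM, Lsm4, a ring protein of U6 snRNA and of decapping, from 13.6 to 6.59, and Ndufa2, a subunit of respiratory complex I, from 87.4 to 40.3. Gnas, which encodes the stimulatory G protein subunit, fell from 14.3 to 6.20 FPKM. Overlapping sense and antisense transcripts share its locus, and strandedness of the counting is not given in the sources used here. Dhrs11, a dehydrogenase (1.48 to 0.606 FPKM), Rnf26, a ubiquitin ligase of the endoplasmic reticulum (1.10 to 0.455), Mien1, a membrane protein encoded next to Erbb2 (20.2 to 9.80), and C5ar1, a complement receptor of microglia (1.08 to 0.521), fell too, and Rnf26 and C5ar1 passed in only 2 of the 8 fits with a compared library left out and not after GC correction. Gm9844 (22.3 to 9.96 FPKM) has the name form of a predicted gene, and reads of near-identical copies may be split in it.

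Control library 1 received neither scratch nor TGF-β1, yet for many of these genes it resembled the Trauma+TGF-β1 libraries. Ndufa2 was at 46.4 FPKM in Control library 1 and at 83.6, 93.0 and 81.8 in the other 3 Control libraries. Pfdn6 was at 14.7 FPKM there against 23.7 to 24.9, and Mapkapk5 at 0.854 against 2.15 to 2.43. Control library 1 was the lowest of the 4 Control libraries for 10 of the 12 largest falls and for 817 of the 1158 genes called lower (70.6%), compared with 32.0% of all tested genes. It was the highest of the 4 for 429 of the 661 genes called higher (64.9%), compared with 31.4% of all tested genes. For the 12 largest rises it was the highest in 1 of 12. After GC correction the share was again 70.6% for genes called lower (363 of 514), and it was 43.9% for genes called higher (105 of 239). What sets this library apart was not tested.

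GC content of the gene went with the direction of the response. The genes were put in 10 groups of equal size by the GC content of their transcripts. In the lowest group (18.1 to 42% GC, 1470 genes) the median log2 difference was 0.172, and 12% of genes were called higher and 0.612% lower. In the highest group (58 to 80.3% GC) the median was −0.197, and 0.612% were called higher and 24.6% lower. The 8 groups between them fell in order from 0.114 to −0.124. Genes called higher had a median GC content of 44.2% and genes called lower one of 55.7%, with 50% over all tested genes.

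Short sequences of a few genes are given as examples of base composition, and a stretch may differ from its whole coding sequence. For each gene 90 in-frame coding bases from the middle of its longest coding exon are given (mm10, GENCODE M21), with G or C at codon position 3 in capitals. Basp1, a growth-associated membrane protein of axons (chr15:25364526-25364615, minus strand, codons 99 to 128), and Bbc3, the p53 target Puma (chr7:16312234-16312323, plus strand, codons 32 to 61), had the highest coding GC content among the named genes called lower with such a stretch, at 74.5% and 72.2% of their whole coding sequence. Prpf39, a factor of the U1 snRNP (chr12:65042604-65042693, plus strand, codons 39 to 68), and Zfp386, a zinc finger protein (chr12:116059678-116059767, plus strand, codons 339 to 368), had the lowest among the named nuclear genes called higher, at 38.3% and 39.7%.
Basp1: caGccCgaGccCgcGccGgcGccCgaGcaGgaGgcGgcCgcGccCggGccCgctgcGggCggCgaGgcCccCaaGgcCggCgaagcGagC
Bbc3: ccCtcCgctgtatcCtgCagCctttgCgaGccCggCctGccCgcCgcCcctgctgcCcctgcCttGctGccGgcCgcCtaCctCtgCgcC
Prpf39: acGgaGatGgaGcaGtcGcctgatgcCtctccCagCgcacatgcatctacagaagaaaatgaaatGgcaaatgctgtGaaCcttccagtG
Zfp386: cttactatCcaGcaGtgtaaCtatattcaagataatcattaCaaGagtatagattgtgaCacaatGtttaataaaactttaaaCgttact
In these stretches 28, 24, 13 and 9 of 30 codons had G or C at position 3. Of all their bases 86.7%, 75.6%, 51.1% and 27.8% were G or C. The Prpf39 stretch was thus richer in GC than the whole coding sequence of that gene (38.3%). Basp1 fell from 628 to 477 FPKM and Bbc3 from 15.1 to 10.1, and Prpf39 rose from 3.79 to 4.96 and Zfp386 from 2.63 to 3.53. After GC correction the log2 differences were −0.27, −0.18, 0.17 and 0.29, against −0.40, −0.58, 0.38 and 0.41 before it, and Bbc3 and Prpf39 were no longer called.

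The relation was strongest for the coding sequence. Across genes, which are not independent replicates, Spearman's rho between the log2 difference and GC content was −0.531 for coding sequence (12082 genes), −0.487 for codon position 3 (12020), −0.404 for 3′ untranslated sequence (12030) and −0.088 for 5′ untranslated sequence (11686). For promoters, the 250 bases before and 50 after a gene's start, rho was 0.001 (10099 genes). At a fixed rank of 3′ untranslated GC the coding relation was −0.393, and at a fixed rank of coding GC the 3′ untranslated relation was −0.117. All of these values rest on the same 8 libraries. Of the parts compared, coding sequence was thus the most closely related to the difference, 3′ untranslated sequence was less so, and the values for 5′ untranslated sequence and for the promoter were near 0.

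Gene length went with the response as well. Length here is the summed exon length per gene that the table gives. Among the longest of 10 groups (9566 to 123179 bases) the median log2 difference was 0.108, with 13.7% of genes called higher and 1.66% lower. Of the genes of 662 to 1562 bases, 1.66% were called higher and 13.6% lower (median −0.101). The shortest group (27 to 662 bases) held few coding genes (5.53%) and had a wide spread, from −0.491 at the lower quartile to 0.518 at the upper. The median length was 7102 bases for genes called higher and 2776 for genes called lower. Where low GC and great length came together, 179 of 847 genes were called higher and 3 lower (median 0.165). In the highest GC quintile and the next to shortest length quintile, 3 of 863 were called higher and 214 lower (median −0.196). At a fixed rank of GC the relation with length was 0.170, and at a fixed rank of length the relation with GC was −0.459. Coding length was related to the difference more closely after GC correction (0.340) than before it (0.277).

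**Figure D2:**
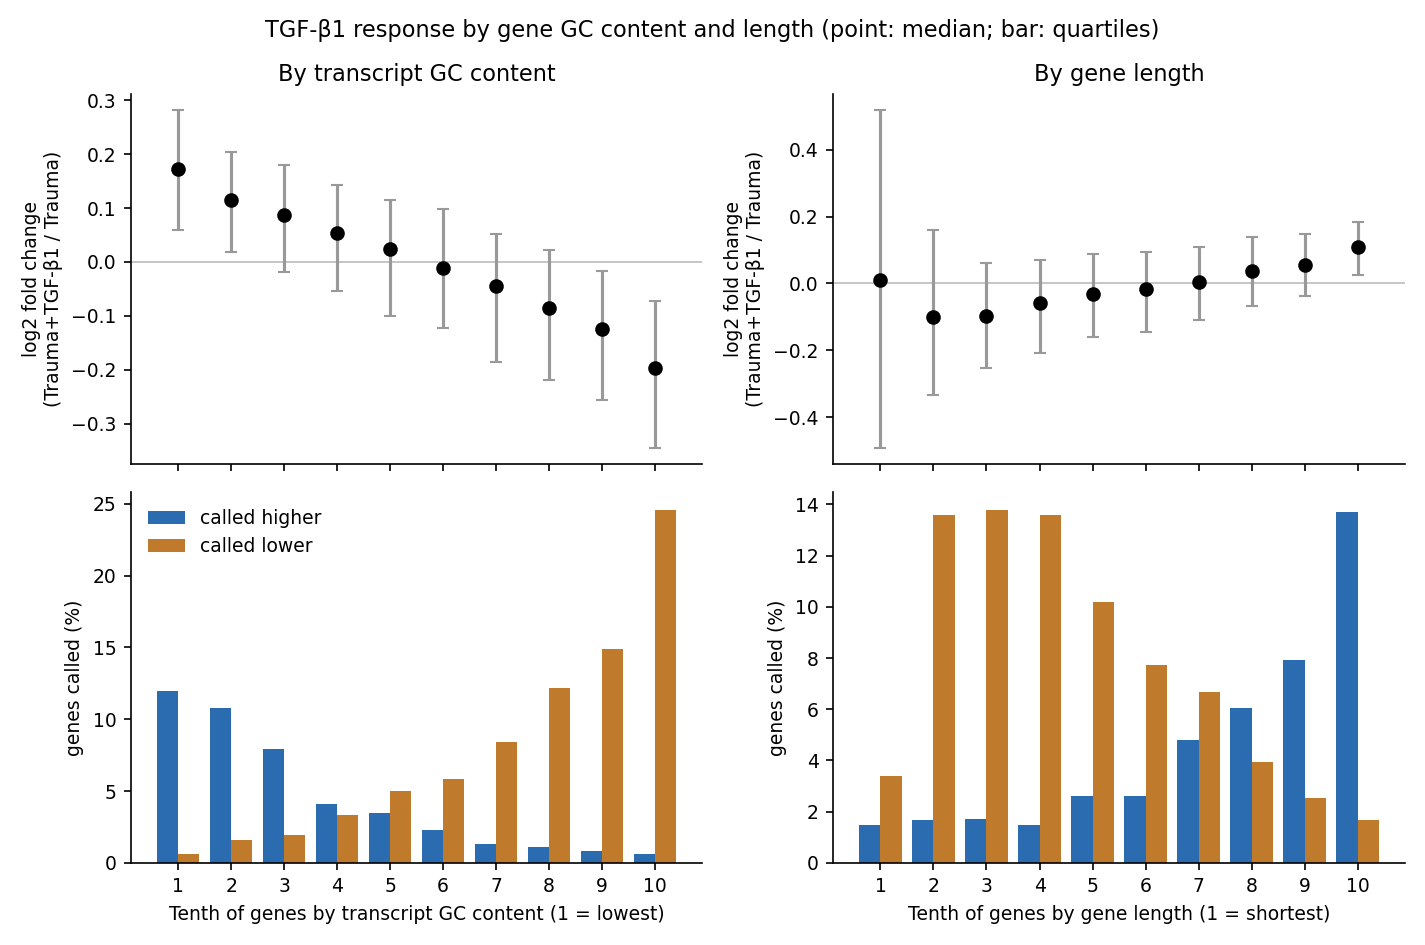
Log2 fold change of Trauma+TGF-β1 against Trauma (upper panels, median with quartiles) and percent of genes called higher or lower (lower panels), for 10 equal groups of genes by transcript GC content (left) and by gene length (right). Medians fall from 0.172 to −0.197 with GC content, and the share called lower reaches 24.6% in the highest group, while the share called higher reaches 13.7% in the longest genes.

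The tilt was also read in every library. For each library Spearman's rho was taken between GC content and the library's log2 deviation from the mean of all 12. It was 0.247, 0.241, 0.185 and 0.254 in Trauma and −0.265, −0.443, −0.158 and −0.356 in Trauma+TGF-β1, without overlap. The difference of −0.537 had an exact two-sided permutation p of 0.0286 (adjusted 0.0371 over 13 library measures), the smallest that 4 against 4 libraries allow. The Control libraries covered most of that range, at −0.21, 0.277, 0.324 and 0.0424. For gene length the same measure was −0.126, −0.187, −0.146 and −0.18 in Trauma, 0.0906, 0.16, 0.111 and 0.101 in Trauma+TGF-β1 (difference 0.276, exact permutation p = 0.0286) and 0.0425, −0.129, −0.138 and −0.0345 in Control. Trauma and Trauma+TGF-β1 libraries thus stood apart on both scales, and Control library 1 lay on the side of the Trauma+TGF-β1 libraries on both. Other library measures moved with them: 17063748 reads on average fell on genes in Trauma and 15513032 in Trauma+TGF-β1, and mitochondrial genes took 2.24 ± 0.0543% and 3.0 ± 0.253% of reads (n = 4 each). The part of library preparation, RNA quality or sequencing in these tilts was not tested, and the treatment and the tilt cannot be told apart within these 8 libraries.

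**Figure D3:**
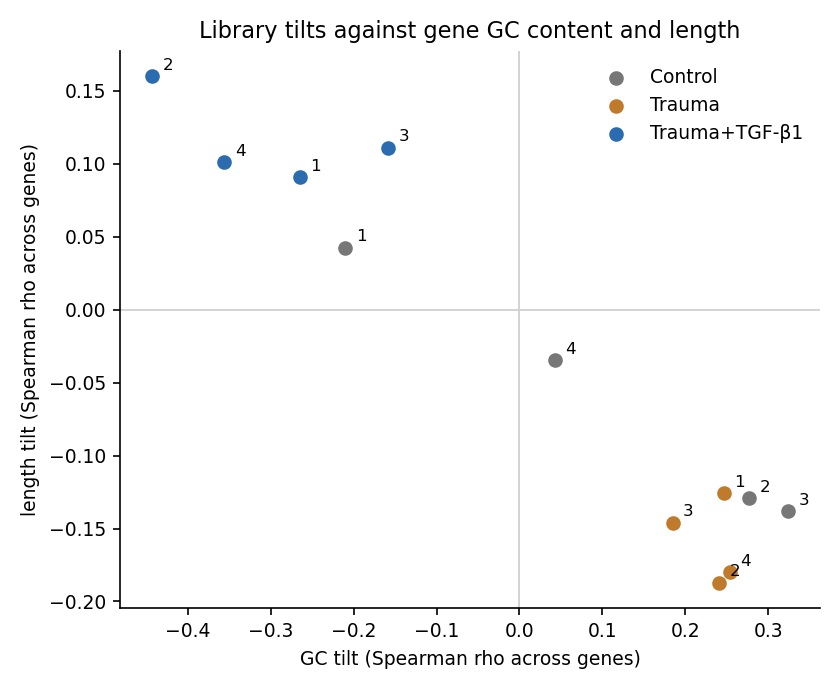
Tilt of each of the 12 libraries against gene GC content (x axis) and gene length (y axis), both as Spearman's rho across genes, with the library number beside each point. Trauma libraries lie at 0.185 to 0.254 and −0.187 to −0.126, Trauma+TGF-β1 libraries at −0.443 to −0.158 and 0.0906 to 0.16, Control libraries 2 and 3 lie beside the Trauma libraries, and Control library 1 beside those with TGF-β1.

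Subtraction of a smooth curve over GC content from each library left 753 calls among the 14699 genes with a GC value, 239 higher (1.63%) and 514 lower (3.50%). This step takes out every difference that follows GC content, whatever its source. Of the 661 genes called higher 167 were called higher again, and of the 1158 called lower 463 were called lower again. The share called lower then ran from 1.56% in the lowest to 4.83% in the highest GC group. A curve over length left 1282 calls, 344 and 786 of them among the original genes. In all, 375 genes (92 higher, 283 lower) were called under the GC, length, quantile and replicate-block fits and with each compared library left out. For the gene groups below, shares are to be read against those of all genes, 4.40% higher and 7.71% lower as measured and 1.63% and 3.50% after GC correction. The share called lower also rose with abundance. In the lowest of 10 groups by mean FPKM (0.5 to 0.792) it was 0.533%. In the highest (32.9 FPKM and above) 27.8% were called lower and 4.53% higher, with a median log2 difference of −0.066. After GC correction 13.4% of that group were called lower. Shares of gene groups with high FPKM are to be read against these values too. Counts under quantile normalization, which over all genes turned the balance of directions, are given where they differ most.

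Most transcripts of the TGF-β pathway itself did not pass the test, although the shares called higher among its ligands and its receptors were above the 4.40% of all genes. Of 14 ligands and latency factors tested, 3 were called higher and 1 lower (median log2 difference 0.019), and 3 and 0 after GC correction. Thbs1, a thrombospondin that activates latent TGF-β, was at 2.83, 1.96, 2.58 and 2.68 FPKM in Trauma and at 4.08, 3.57, 3.68 and 3.77 with TGF-β1 (0.58, SE 0.11, adjusted p = 0.0094). The integrin subunits Itgav and Itgb8, which together free latent TGF-β, rose from 6.31 to 8.17 and from 10.6 to 12.6 FPKM. Gdf11, a ligand of the activin branch, fell from 8.64 to 7.49. Ltbp3, which binds the latent form, did not pass at 1.91 and 2.56 FPKM (adjusted p = 0.067), although its groups did not overlap. After GC correction Ltbp3 was called higher (0.61, limma adjusted p = 0.017) along with Thbs1 and Itgav, whereas Itgb8 (0.12) and Gdf11 (−0.14) were not called (adjusted p = 0.13 each). The ligand genes Tgfb2 (1.41 and 1.38 FPKM) and Tgfb3 (2.21 and 2.17) overlapped between the groups.

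Of 16 receptors and Smads, 3 were called higher and 0 lower, and after GC correction 0 were called by limma. The 3 were Acvr2a (20.7 to 25.3 FPKM), Bmpr2 (13.7 to 16.6) and Bmpr1a (7.78 to 8.99), receptors for activins and BMPs. The TGF-β receptors themselves did not pass, with Tgfbr1 at 2.38 and 2.46 FPKM and Tgfbr2 at 0.827 and 0.648. The signal transducers Smad2 (6.00 and 6.43), Smad3 (3.67 and 3.47) and Smad4 (17.0 and 17.8) did not pass either.

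Of 14 feedback regulators 1 passed, before and after GC correction. Pmepa1 (ENSMUSG00000038400, chr2:173224458-173276533, minus strand), a membrane protein that holds Smads and is induced by TGF-β, was at 14, 12.7, 14.6 and 12.8 FPKM in Trauma and at 20.2, 18.8, 19.6 and 18.7 with TGF-β1. Its log2 difference was 0.51 (SE 0.0577, adjusted p = 0.0016) and 0.64 after GC correction. Control libraries held 12.7 to 14.5, like Trauma. Smad7, the inhibitory Smad, did not pass, and it was at 3.13, 3.55, 2.56 and 2.54 FPKM in Trauma and at 2.50, 1.83, 2.23 and 1.66 with TGF-β1, a difference of −0.50 (SE 0.16, adjusted p = 0.054). Skil (9.0 and 9.59 FPKM, adjusted p = 0.34) and Ski (53.6 and 54.5), corepressors of Smads, did not pass.

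Genes known as TGF-β targets in other cell types moved mostly upward. Of 30 tested, 10 were called higher and 1 lower, and the median was 0.16 (0.11 after GC correction, with 9 and 1 called). The median shift of the list was 0.096 to 0.24 in the 4 Trauma+TGF-β1 libraries, above all Trauma libraries, and −0.53 to −0.37 in the 4 Control libraries. Beside Ccn2 they were Timp3 (3.23 to 5.65 FPKM), an inhibitor of metalloproteases, Fn1 (2.91 to 4.95), fibronectin, Ccn1 (16.5 to 27.2), a matricellular protein, Acta2 (4.43 to 6.94), smooth muscle actin, Sparc (45.3 to 59.0), a collagen-binding glycoprotein, the transcription factors Bhlhe40 (5.99 to 7.85) and Zeb2 (7.70 to 8.88), Angptl2 and Loxl1. After GC correction Zeb2 was not called. Fn1 was at 2.72, 2.84, 3.10 and 2.97 FPKM in Trauma and at 5.16, 5.30, 4.98 and 4.38 with TGF-β1, and Timp3 at 3.17, 3.74, 3.17 and 2.86 and then at 5.47, 5.86, 5.23 and 6.03. Both pairs of groups lay apart. Id3, an inhibitor of helix-loop-helix factors that BMP induces and TGF-β represses in epithelium, fell from 5.38 to 3.50 FPKM. Junb, an early target, did not pass at means of 15.3 and 8.69 FPKM, with Trauma libraries spread from 10.4 to 20.4.

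The promoters of such genes were searched for CAGAC on either strand, the core letters of a Smad binding element. The windows of Sparc (chr11:55420031-55420330, minus strand) and Acta2 (chr19:34255324-34255623, minus strand) are given from RefSeq on GRCm38.p6, with matches in capitals, because both genes were called higher and their windows differ in the number of matches.
Sparc: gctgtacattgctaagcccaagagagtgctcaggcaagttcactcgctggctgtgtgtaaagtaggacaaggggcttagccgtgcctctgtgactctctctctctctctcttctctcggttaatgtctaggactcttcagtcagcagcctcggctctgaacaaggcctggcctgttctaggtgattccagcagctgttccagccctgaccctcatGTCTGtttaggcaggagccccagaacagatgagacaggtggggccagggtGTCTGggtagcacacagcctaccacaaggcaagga
Acta2: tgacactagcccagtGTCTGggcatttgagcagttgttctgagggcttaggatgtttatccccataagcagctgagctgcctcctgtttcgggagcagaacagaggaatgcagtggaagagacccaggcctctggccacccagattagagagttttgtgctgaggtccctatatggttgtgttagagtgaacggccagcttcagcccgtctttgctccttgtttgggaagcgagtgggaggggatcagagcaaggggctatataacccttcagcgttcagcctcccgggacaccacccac
These windows held 2 matches and 1 match. CAGAC was found in 40.2% of the promoters of genes called higher (191 of 475) and in 46.8% of those called lower (417 of 891), compared with 46.7% of all tested genes and 49.7% of all promoters in the table. In the target list it was in 12 of 21 promoters, and in 4 of 6 of its members called higher. These letters occur often by their shortness, and a match is not a shown binding site.

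More extracellular matrix genes were called higher than lower with TGF-β1. Of 44 collagens and matrix proteins tested, 9 were called higher and 2 lower (median 0.043), after GC correction 7 and 0 (median 0.13), and after length correction 7 and 2 (median −0.0062). Col12a1 and the lysyl hydroxylases Plod2 and Plod1 (2.94 to 4.05 FPKM) were among those called higher, as was Tnr, the tenascin of perineuronal nets (12.6 to 16.1 FPKM). Bcan and Cspg5, neural chondroitin sulfate proteoglycans, fell from 38.7 to 31.6 and from 24.1 to 20.3 FPKM, and neither was called after GC correction (log2 differences −0.0947 and −0.15). Of 22 integrins and focal adhesion genes, 1 was called, the vitronectin receptor subunit Itgb5 (9.53 to 12.2 FPKM), with and without GC correction, and the median was 0.045.

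Among astrocyte genes more were lower than higher with TGF-β1. Of 21 astrocyte markers, 1 was called higher and 7 lower (median −0.14), with the same counts after GC correction (median −0.069). The median shift of the list overlapped between the groups, at −0.17 to −0.094 with TGF-β1 and −0.11 to 0.063 in Trauma. In the Control libraries it was −0.42 to −0.31. Glul (ENSMUSG00000026473, chr1:153899944-153909723, plus strand), glutamine synthetase, was at 130, 140, 142 and 142 FPKM in Trauma and at 78.1, 80.3, 75.3 and 77.3 with TGF-β1. Its log2 difference was −0.83 (SE 0.0566, adjusted p = 2.7e-05), and Control libraries lay between the groups at 94.2 to 117. The folate enzyme gene Aldh1l1 fell from 14.2 to 9.99 FPKM, Mlc1, a membrane protein of astrocyte endfeet, from 43.7 to 34.0, and Apoe, the main lipoprotein of brain, from 436 to 289. Apoe was at 248 FPKM in Control library 1 and at 348 to 401 in the other 3. In contrast, Aqp4, the endfoot water channel, rose from 17.1 to 21.4 FPKM, and the glial potassium channel Kcnj10 rose from 61.5 ± 2.60 to 81.9 ± 4.03 FPKM (0.41, adjusted p = 0.0013). Gfap, the astrocyte intermediate filament, did not pass at 87.3 and 97.1 FPKM, and Vim, vimentin, did not pass at 62.0 and 54.3.

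Among other glial and immune genes the calls went in both directions. Of 13 microglial markers 1 was called lower, C1qc (7.86 to 6.09 FPKM, adjusted p = 0.049), and its groups overlapped, and after GC correction 0 were called by limma, with C1qc at −0.25. Ccl3, a chemokine of microglia, fell from 2.01 to 0.973 FPKM (−0.98, adjusted p = 0.0098). In the list of 24 interferon, MHC and inflammatory genes 2 were called higher and 3 lower (2 and 1 after GC correction), among them Vcam1, an adhesion molecule, which rose from 2.08 to 3.44 FPKM, and the complement gene C4b, which rose from 1.73 to 2.53. Of 12 oligodendrocyte lineage markers only Cnp, a myelin phosphodiesterase, was called (11.2 to 8.56 FPKM), also after GC correction.

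Notch pathway genes included some of the clearer rises. Of 23 tested, 3 were called higher and 2 lower (median 0.067), and after GC correction 3 and 0. Notch3 (ENSMUSG00000038146, chr17:32120820-32166852, minus strand), the receptor of mural cells and glial progenitors, was at 2.07, 2.23, 2.28 and 2.24 FPKM in Trauma and at 3.94, 4.30, 4.05 and 3.75 with TGF-β1. Its log2 difference was 0.83 (SE 0.10, adjusted p = 0.0026) and 1.03 after GC correction, as its transcript has a GC content of 59.7%. Notch1 (1.98 to 2.49 FPKM) and Hey1 (9.17 to 11.6), a target of the pathway, rose too, although Notch1 passed in none of the fits with a compared library left out. Lfng, which modifies Notch with sugar, and Dtx1, a ligase acting on Notch, fell from 10.9 to 8.38 and from 34.2 to 27.9 FPKM before GC correction but did not pass after it.

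Few early response and proliferation genes passed the test, and those that did were lower with TGF-β1. Their shares were near the 7.71% of all genes called lower, except that of the G1 regulators. Of 28 early response genes 0 were called higher and 3 lower (median −0.29, and −0.12 after GC correction, when Ier5 alone was lower), and the median shift of the list overlapped between the groups. They were Ier5 (10.7 to 6.83 FPKM), Jun (18.0 to 15.4) and Egr4 (8.69 to 4.29, groups overlapping). Of 20 feedback genes of the ERK kinase pathway 2 were called lower, the Ets factors Etv4 (3.12 to 2.01 FPKM) and Etv5 (11.3 to 9.17), of which Etv4 alone passed after GC correction. Of 27 genes of S phase and mitosis 0 were called higher and 2 lower (median −0.15), and 1 lower after GC correction. Of 17 regulators of the G1 phase 4 were called lower (median −0.13), and 2 after GC correction (median −0.077). Ccnd1, cyclin D1, was at 7.47, 8.69, 7.40 and 8.88 FPKM in Trauma and at 4.95, 4.44, 5.06 and 4.87 with TGF-β1 (−0.73, SE 0.10, adjusted p = 0.0037), and Control libraries were at 3.71 to 5.44. The groups were apart, and the Trauma+TGF-β1 libraries lay within the Control range. Cdkn2c, an inhibitor of Cdk4 and Cdk6, fell from 1.88 to 1.19 FPKM. Among growth factors and their receptors (37 tested, 3 higher and 0 lower, then 1 and 0 after GC correction) Hbegf, a ligand of the EGF receptor, rose from 3.31 to 4.98 FPKM. Among 35 Wnt and BMP genes 3 were called higher and 2 lower (median −0.035), and 1 and 1 after GC correction, and Wnt7a fell from 6.47 to 4.56 FPKM.

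Nuclear genes of the respiratory chain were lower together. Of 79 nuclear genes of complexes I to IV and ATP synthase, 0 were called higher and 43 lower, and 36 were called lower after GC correction. A log2 difference below 0 was found in 72. Of all genes 7.71% were called lower. In the most abundant of 10 groups of genes by mean FPKM the share was 27.8%, and 13.4% after GC correction. For the 35 genes of complex I the counts were 0 and 21 (median −0.32) and 0 and 17 after GC correction (median −0.23). For 25 genes of complexes II to IV they were 0 and 14 (−0.22), then 0 and 13, and for 19 genes of ATP synthase 0 and 8 (−0.17), then 0 and 6. Quantile normalization left 0 and 9 for complexes II to IV (median −0.11). The complex I and complexes II to IV genes are short, at median lengths of 1495 and 1478 bases, against 3865 over all genes. After length correction 0 and 18 genes were called in complex I (median −0.26) and 0 and 11 in complexes II to IV (−0.15). In ATP synthase 0 and 7 were called (−0.12). After GC and length correction together the 3 medians were −0.19, −0.15 and −0.17. The median shift of the complex I genes was −0.25, −0.35, −0.30 and −0.30 in the Trauma+TGF-β1 libraries and −0.058, 0.03, 0.014 and −0.054 in the Control libraries. For this group Control libraries 1 and 4 were thus near each other, whereas for Ndufa2 Control library 1 stood below the other 3. These genes together took 0.888 to 0.943% of reads in Trauma, 0.776 to 0.801% with TGF-β1 and 0.851 to 0.889% in Control.

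Single members were named from the called genes, none of which was higher in these lists, so that their shared direction was fixed by the choice. Ndufa1 (ENSMUSG00000016427, chrX:37187588-37191163, minus strand), a small membrane subunit of complex I, was at 72.0, 82.3, 80.2 and 78.9 FPKM in Trauma and at 51.7, 54.8, 52.5 and 52.8 with TGF-β1, a log2 difference of −0.56 (SE 0.0729, adjusted p = 0.003) and of −0.60 after GC correction. Further complex I subunits were Ndufa3 (38.7 to 26.9 FPKM) and Ndufa8 (94.5 to 71.0). Uqcr11 of complex III was at 106, 113, 104 and 138 FPKM in Trauma and at 66.0, 50, 57.0 and 61.4 with TGF-β1, and it too was low in Control library 1 (67.4, against 94.6 to 118). Sdhd, a membrane anchor of succinate dehydrogenase, fell from 79.8 to 61.8 FPKM, Cycs, cytochrome c, from 29.4 to 23.9, Atp5e and Atp5d of ATP synthase from 44.3 to 28.9 and from 118 to 90.4, and Cox11, which delivers copper to cytochrome oxidase, from 8.66 to 4.31. Related sequences of some of these short genes exist elsewhere in the genome, and reads shared with such copies may have been split.

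The genes of the mitochondrial chromosome went the other way. Of its 13 protein genes 7 were called higher and 0 lower (median 0.42), and after GC correction limma called 0 of them (median 0.20). mt-Nd2, also a complex I subunit, was at 1590, 1608, 1641 and 1533 FPKM in Trauma and at 2122, 2549, 2034 and 2736 with TGF-β1 (0.56, SE 0.12, adjusted p = 0.014). Control library 1 was at 2273, with the Trauma+TGF-β1 libraries, and the other 3 Control libraries were at 1568 to 1734. mt-Co1 (5146 to 6973 FPKM), mt-Cytb (3250 to 4194) and mt-Nd1 (3023 to 4006) were called as well, and quantile normalization set their difference to 0, because the most abundant genes then receive equal values. The median shift of the 13 genes was 0.35, 0.53, 0.14 and 0.50 with TGF-β1 and 0.30, 0.042, −0.07 and 0.088 in Control. The nuclear and mitochondrial genes of complex I also differ in base composition, as the middle coding stretches of a member of each show (mt-Nd2, chrM:4388-4477, plus strand, codons 159 to 188; Ndufa1, chrX:37190995-37191084, minus strand, codons 3 to 32; capitals as before).
mt-Nd2: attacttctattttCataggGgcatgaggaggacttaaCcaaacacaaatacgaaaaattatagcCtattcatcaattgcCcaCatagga
Ndufa1: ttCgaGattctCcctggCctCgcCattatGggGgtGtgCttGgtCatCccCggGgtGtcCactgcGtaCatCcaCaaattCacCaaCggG
In these, 6 and 25 of 30 codons had G or C at position 3. The whole coding sequences have 35.7% and 52.4% GC, and the nuclear complex I genes a median transcript GC of 52.1%, close to that of all tested genes.

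**Figure D4:**
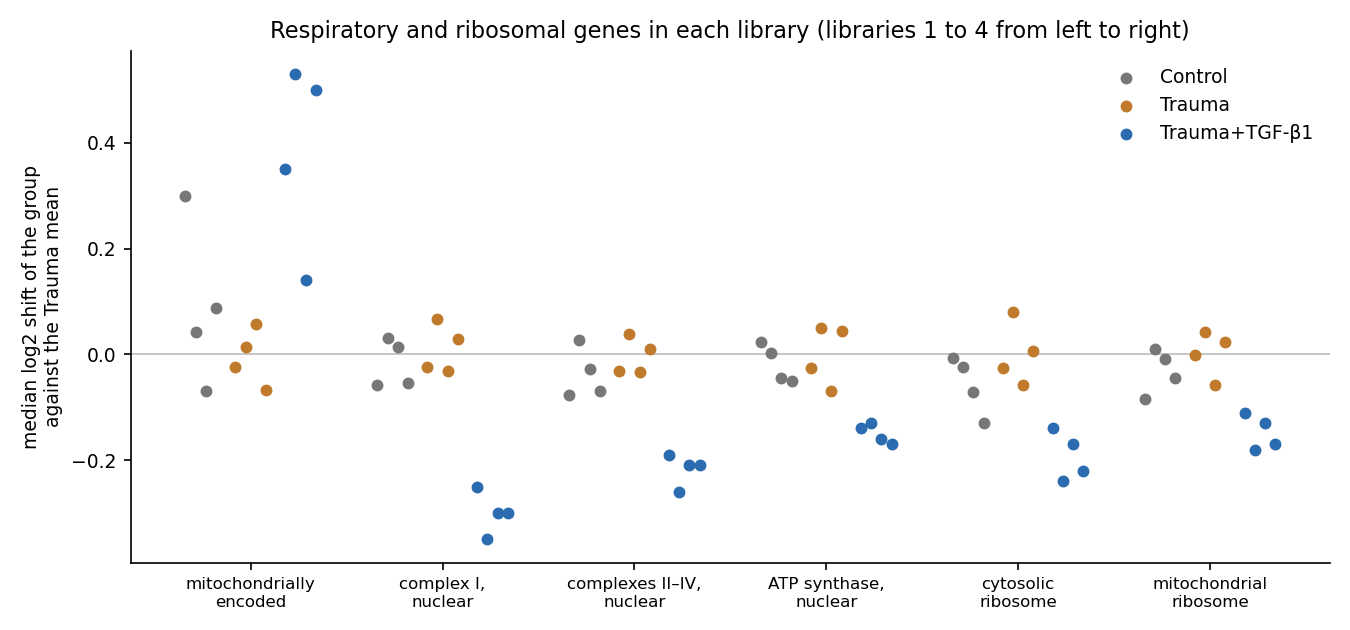
Median log2 shift of 6 gene groups against the Trauma mean (y axis) in each Control, Trauma and Trauma+TGF-β1 library. With TGF-β1 nuclear complex I genes lie at −0.35 to −0.25, and in Control at −0.058 to 0.03, while mitochondrially encoded genes lie at 0.14 to 0.53 with TGF-β1 and at 0.30 in Control library 1.

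Protein import, citric acid cycle and glycolysis genes were called in the downward direction, and 2 other metabolic lists had medians above 0. Of 28 protein import genes 6 were called lower with and without GC correction (median −0.11, and −0.057 under quantile normalization), among them Tomm7 (18.9 to 9.99 FPKM), of the outer membrane translocase, and Timm13 (43.8 to 23.9), an intermembrane chaperone. Control library 1 was low in both, at 9.71 and 26.1 FPKM against 12.4 to 15.9 and 44.1 to 46.2. Of 19 genes of the citric acid cycle and its entry 7 were called lower, and 6 after GC correction, with Pcx, pyruvate carboxylase, at 13.9 and 9.36 FPKM and Idh3b, of isocitrate dehydrogenase, at 40.0 and 33.8. The median of that list was −0.035 and turned to 0.024 under quantile normalization, when 2 were called higher and 4 lower. Of 21 glycolytic genes 11 were called lower (median −0.17) and 3 after GC correction (median −0.088) or 4 under quantile normalization (median −0.10), with Tpi1 at 98.1 and 80.0 FPKM, Pgk1 at 122 and 102 and Aldoc at 98.3 and 76.3. Of 32 genes of sterol and fatty acid synthesis 25 had a difference above 0, with 3 called higher and 1 lower (median 0.082), 2 and 1 after GC correction (median 0.081) and 9 and 1 under quantile normalization. The 21 hypoxia response genes had a median of 0.039, with 2 called higher and 3 lower, and 1 and 2 after GC correction.

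In both ribosomes many more genes were called lower than higher. Of 82 cytosolic ribosomal protein genes 0 were called higher and 33 lower (median −0.21), and after GC correction 0 and 22 (median −0.16). The median was −0.13 with 24 lower after length correction, and −0.10 with 2 higher and 23 lower under quantile normalization. Over all genes 7.71% were called lower, and 27.8% in the most abundant of 10 groups of genes by mean FPKM (13.4% after GC correction). Rpl23 was at 74.1, 77.4, 72.8 and 74.2 FPKM in Trauma and at 58.3, 55.3, 55.3 and 55.8 with TGF-β1 (−0.41, SE 0.0428, adjusted p = 0.0013). Rpl36 fell from 279 to 191 FPKM, Rpl13 from 131 to 97.9, and Rpl22l1, a paralog of Rpl22, from 14.4 to 7.64. Many processed copies of these genes lie in the genome, so that single values are uncertain. Of 78 mitochondrial ribosomal proteins 1 was called higher and 19 lower (median −0.14), and after GC correction 1 and 10 (median −0.16). Gadd45gip1 (7.79 to 4.78 FPKM), Mrpl34 (59.2 to 43.8) and Mrpl20 (29.9 to 23.2) fell, and Mrps18b rose (6.61 to 7.92). Of 65 translation initiation and elongation factors, 2 were called higher and 10 lower (median −0.028), among them Eif5a (178 to 146 FPKM) and Eif4h (71.5 to 56.9). After GC correction 1 and 4 of these were called, and quantile normalization turned the balance to 10 and 7 (median 0.028).

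Protein turnover genes were divided by kind. Of 38 proteasome subunits 2 were called higher and 6 lower (median −0.049), after GC correction 0 and 6, and under quantile normalization 2 and 3 (median 0.0022). The catalytic subunits Psmb5 and Psmb6 fell from 98.5 to 75.9 and from 45.8 to 35.9 FPKM, and the ATPase Psmc6 and the activator Psme4 rose from 27.3 to 31.1 and from 11.1 to 12.4, but not after GC correction. Of 45 deubiquitinases of the Usp family, which are long and of low GC content, 5 were called higher and 0 lower (median 0.11), with Usp34 at 14.6 and 17.5 FPKM and Usp7 at 22.1 and 24.8. After GC correction limma called 0 of the 45 (median 0.063). Of 60 autophagy genes 4 were called higher and 10 lower (5 and 3 after GC correction, 10 and 6 under quantile normalization), and Map1lc3a, a precursor of LC3, fell from 218 to 157 FPKM. Of 19 genes of the vacuolar proton pump 0 were called higher and 4 lower, although the median was 0.032. After GC correction 0 and 3 were called, and 4 and 3 under quantile normalization. Atp6v1f of the pump fell from 68.9 to 50.1 FPKM. Of 190 ubiquitin E2 and E3 ligases 13 were called higher and 16 lower (median 0.0001), and 4 and 7 after GC correction. Fbxo2, a ubiquitin ligase subunit for glycoproteins, fell from 25.7 to 15.7 FPKM.

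Genes of RNA processing and chromatin were also mixed. Of 79 spliceosome proteins 8 were called higher and 16 lower (median −0.072), and after GC correction 2 and 14, when Sf3b1 was not called. Snrpe and Snrpd1, members of the Sm ring, rose from 5.99 to 9.04 and from 16.2 to 20.0 FPKM, and Sf3b1, of the U2 snRNP, from 28.7 to 33.7, whereas Hnrnpab, an RNA-binding protein, fell from 88.2 to 54.8. Hnrnpab was at 64.6 FPKM in Control library 1 and at 87.9 to 99.8 in the other 3. Of 71 RNA polymerase and mediator subunits 4 were called higher and 13 lower, and 3 and 6 after GC correction, with Polr2l at 20.1 and 13.1 FPKM. Of 24 histone genes 0 were called higher and 8 lower (median −0.24), and 4 after GC correction or length correction. These included the replication-independent H3f3a (71.3 to 59.5 FPKM) and H2afz (51.2 to 40.7), and H1fx (36.3 to 23.9), whose difference was only −0.0664 after GC correction. Of 62 chromatin modifiers, whose median length was 11772 bases, 7 were called higher and 1 lower (median 0.068) and 3 and 0 after GC correction, but 1 and 6 after length correction (median −0.015). Kmt2c, an H3K4 methyltransferase, rose from 7.50 to 9.32 FPKM and Setd2, which methylates H3K36, from 11.9 to 13.8, the latter not called after GC correction. Of 301 Zfp zinc finger genes 24 were called higher and 9 lower (median 0.087), and after GC correction 6 and 2 (median 0.04).

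Genes of neuronal signalling showed small differences, many of which followed GC content. Of 15 ionotropic glutamate receptor subunits 4 were called higher and 0 lower (median 0.092), and of 21 metabotropic glutamate and GABA receptors 4 and 1 (median 0.16). In both lists limma called 0 after GC correction, and after length correction 0 of the ionotropic list (median 0.017) and 3 higher and 1 lower of the other (median 0.11), for which quantile normalization gave 9 and 0. Gria2 was at 41.2 and 47.3 FPKM, Grin2b at 40.7 and 46.0 and Gabra2 at 3.61 and 4.58. Of 30 sodium, calcium and HCN channels 6 were called higher and 5 lower, 2 and 1 after GC correction, and 10 and 3 under quantile normalization. The long sodium channel genes Scn1a and Scn2a rose from 9.92 to 11.9 and from 30.3 to 34.6 FPKM, and the GC-rich Hcn2 fell from 27.8 to 22.5, and none of these 3 passed limma after GC correction. The difference of Hcn2 turned from −0.30 to 0.0297 after GC correction.

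In the presynaptic list (43 tested) 4 were called higher and 5 lower (median 0.036), and 4 and 1 after GC correction. Quantile normalization raised this to 14 higher and 2 lower (median 0.11). The giant active zone genes Pclo and Rims2 rose from 10.9 to 13.5 and from 7.42 to 8.71 FPKM, and Syp, synaptophysin, fell from 108 to 88.0. In the postsynaptic list (41 tested) 5 and 5 were called, 2 and 0 after GC correction, 0 and 7 after length correction, and 8 and 3 under quantile normalization. Dlgap3 and Nlgn2, a scaffold and an adhesion molecule, fell from 49.5 to 37.9 and from 84.2 to 69.8 FPKM, but their differences after GC correction were −0.0785 and −0.0730. Among 44 neurofilament, tubulin and microtubule genes 3 were called higher and 8 lower (median −0.026), and 2 and 1 after GC correction (median 0.031), with Stmn3 at 680 and 556 FPKM and Tubb2b at 699 and 610, neither called after that correction. Under quantile normalization the balance turned to 12 higher and 3 lower (median 0.021). Of 26 neuron identity genes 3 were called higher and 3 lower (median −0.0018), 1 and 0 after GC correction, and 8 and 0 under quantile normalization (median 0.057).

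Calls among cell death and antioxidant genes were downward, while those of the unfolded protein response were mostly upward, and over all genes 4.40% were called higher and 7.71% lower. Of 35 Bcl2 family and caspase genes 0 were called higher and 8 lower (median −0.032), and 3 after GC correction. Bbc3 was at 15.5, 15.9, 13.3 and 15.6 FPKM in Trauma and at 11.3, 10.0, 9.63 and 9.44 with TGF-β1 (−0.58, SE 0.11, adjusted p = 0.01), without overlap. After GC correction its difference was −0.18 and it was not called (limma adjusted p = 0.19). Bok, a pore-forming member, fell from 27.1 to 18.5 FPKM, and Bcl2l2, which protects cells, fell as well, from 9.73 to 7.90, so that calls of opposite function shared a direction. Of 32 antioxidant and metallothionein genes 0 were called higher and 7 lower, and 4 after GC correction. Prdx6, a peroxiredoxin abundant in astrocytes, was at 34.5, 39.0, 37.4 and 38.8 FPKM in Trauma and at 27.7, 26.9, 24.2 and 24.4 with TGF-β1 (−0.54, SE 0.0574, adjusted p = 0.0013), and Control libraries were at 21.0 to 23.7. Sod1 fell from 36.2 to 29.0 FPKM and Txn1, thioredoxin, from 88.0 to 68.3. In the Atf4 stress response (27 tested) 2 were called higher and 5 lower (median −0.053), and 2 and 3 after GC correction (median 0.022), among them Ddit4 (58.0 to 39.6 FPKM), Atf5 (45.5 to 34.0) and the cystine transporter Slc7a11 (3.45 to 2.51). Of 24 genes of the unfolded protein response of the endoplasmic reticulum 4 were called higher and 1 lower (median 0.023), 0 and 1 after GC correction, and 7 and 1 under quantile normalization. Of 25 p53 targets 0 were called higher and 2 lower, and limma called 0 after GC correction.

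**Figure D5:**
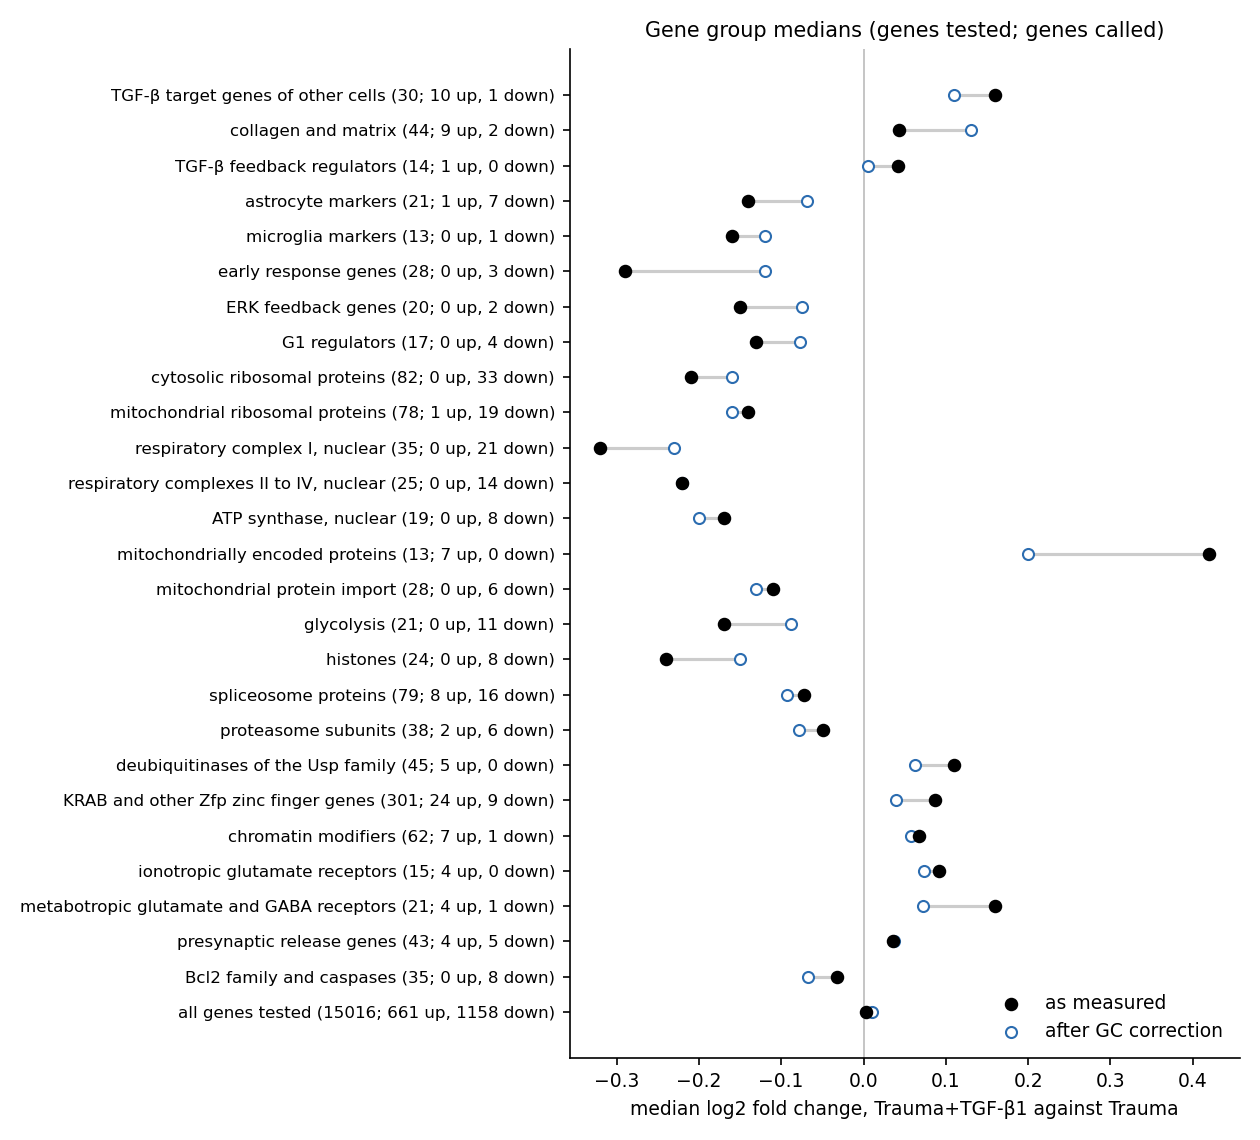
Median log2 fold change of Trauma+TGF-β1 against Trauma (x axis) in 26 gene groups and in all tested genes, as measured (filled) and after GC correction (open), with the genes tested and called in each group. Nuclear respiratory, ribosomal and histone groups lie below 0 in both, TGF-β targets and matrix above 0 in both, and the median of all genes is 0.0025.

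Over 66 gene lists the median shift of the Trauma+TGF-β1 libraries lay above all 4 Trauma libraries in 9 lists, below them in 15 and overlapped in 42. Of the 19 lists with a median of at least 0.1 in size, 0 turned sign under any alternative fit. The lists share libraries, GC tilt and in part members, and were not tested as sets.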

How the data were processed

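RNA of 12 libraries (Control, Trauma and Trauma+TGF-β1, 4 each, grouped by their labels) was sequenced as paired-end reads. Per the study's methods and the submitters' processing notes, reads were base-called with CASAVA, aligned to mm10 with HISAT2 2.0.5, assembled with StringTie and counted per gene with featureCounts. The authors deposited FPKM values per gene together with gene lengths. The methods text speaks of 6 samples, and 12 libraries were in the table. FPKM times length gave whole reads. Scaling factors, the median ratio of each library to the geometric mean of all libraries, were already 1 in the deposited values, so none was added. The library size implied by those values was not the number of reads on genes. It was 15385942 against 15665381 in Control library 1 and 17790502 against 17317265 in Trauma library 4. How reads on overlapping genes or copies were assigned is not given in the sources used here, so those values are uncertain.

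Here log2(FPKM + 0.1) of the 15016 genes with a mean of at least 0.5 FPKM was fitted over all 12 libraries with limma 3.58.1 (R 4.3.3), with a trend in the prior variance, and Trauma+TGF-β1 was contrasted with Trauma at a Benjamini-Hochberg adjusted p of 0.05. The fold change on this scale understates that of weak genes. GC content was averaged over GENCODE M21 transcripts by length (97.9% of tested genes had a value), and a loess curve with a span of 0.3 over GC or length was subtracted per library. Library measures were compared by exact permutation over 70 assignments. The test was tried on simulated reads.

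The members and gene lists were chosen with earlier results of these data known. Named genes are the 12 largest called changes in each direction among protein-coding genes with at least 1 FPKM, 30 reads and no overlap, 6 more after GC correction, up to 4 called genes per direction in each of 66 lists, all members of the TGF-β lists and the cell type markers. Whether replicate numbers pair the libraries is not given in the sources used here and was not tested. Same-numbered Trauma and Trauma+TGF-β1 libraries deviated from their group means with correlations of 0.0118 to 0.0762. For differently numbered libraries the correlations were −0.0911 to 0.0482. Alternatives covered pseudocount, filter, scaling, GC and length correction, replicate block and libraries left out. Scaling to the reads on genes and GC of the longest transcript were added after the data were seen.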

Additional observations from a re-analysis of the deposited data

Results flagged for a closer look

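In 489 groups of 4 values (318 of them a named gene in Trauma or in Trauma+TGF-β1), 20 had 1 library set off from the other 3 by more than the 95% critical ratio of Dixon's test, and chance alone gives about 1 in 20. In Trauma, library 3 was set off low for Atp5e (40.8 FPKM, the others 45.1 to 45.6), Basp1 (600, others 636 to 640) and Etv5 (11, others 11.4 to 11.5), and high for Bcan (41.1, others 37.8 to 38), Itgav (6.97, others 5.99 to 6.15) and Zeb2 (7.96, others 7.59 to 7.62). Trauma library 1 was low for Aldoc (85.6 FPKM, others 101 to 104), Trauma library 2 was low for Hey1 (8.39, others 9.35 to 9.48) and high for Loxl1 (1.11, others 0.645 to 0.716), and Trauma library 4 was low for Skil (8.34, others 9.13 to 9.29) and high for Bmpr1a (8.27, others 7.59 to 7.68). In Trauma+TGF-β1, library 4 was high for C1qc (8.09 FPKM, others 5.28 to 5.50), library 2 was low for Cycs (22.9, others 24.2 to 24.3) and Ndufa3 (25.4, others 27.3 to 27.6), library 1 was low for Gfap (91.7, others 98.2 to 99.4) and library 3 was low for H2afz (38.8, others 41.3 to 41.5).

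Of the library measures, Trauma library 1 had 16335960 reads on genes (others 17262211 to 17339554), and the mean gene length of reads was 7092 bases in Trauma+TGF-β1 library 2 (others 7038). The median shift of glycolytic genes was −0.0260 in Trauma library 3 (others 0.00300 to 0.00550), and that of spliceosome proteins was −0.100 in Trauma+TGF-β1 library 4 (others −0.0720 to −0.0690).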

How the results depend on the processing

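The count of 1819 genes called was 987 without the filter on low values (33142 genes tested), 753 after GC correction, 650 after GC correction with replicate block, 876 after length correction with replicate block, 634 after GC and length correction and 817 after GC correction with the longest transcript. With a replicate block alone it was 1517, and whether the replicate numbers pair the libraries is not given in the sources used here. With 1 library left out it ran from 651 to 2539, and it was more than 1.5 times smaller without Trauma library 1 (1021), 2 (794) or 4 (861) or without Trauma+TGF-β1 library 2 (651) or 4 (802). The GC and length tilts kept their sign under all 26 alternatives run for them. Of 145 called genes named in the text, 41 were not called after GC correction, 21 after length correction and 8 to 37 without 1 compared library.

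For 7 called genes the sign turned or the difference became 0. Under quantile normalization mt-Co1, mt-Cytb and mt-Nd1 had a log2 difference of 0 and Tubb3 one of 0.016. Hcn2 was at 0.03 after GC correction with and without replicate block, at 0.038 after GC and length correction and at 0.018 with the GC of the longest transcript. After GC and length correction Tubb3 was at 0.005 and H1fx at 0.017, and Psmc6 was at −0.0066 with the GC of the longest transcript. Beyond the construction of each setting the cause was not tested. List medians below 0.1 in size are not stable in sign: 16 turned under length correction, 7 under GC correction and 9 under quantile normalization.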
